A study of Homo sapiens with 16 samples.

Results

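A stretch of chromosome 1 near its short-arm end, taken as hg19 chr1:564000-570500, is a nuclear copy of about 6 kb of mtDNA and holds the pseudogenes MTND1P23, MTND2P28, MTCO1P12, MTCO2P12, MTATP8P1, MTATP6P1 and MTCO3P12. The γ-tubulin ChIP-seq peaks on it were chosen by their position, as every peak of the 4 deposited lists that overlapped this window of 6501 bp. They numbered 18 of 2962 peaks. Because only stretches that passed the authors' peak caller are listed, the count in each list is itself what the choice rests on, and it is given as a description without a test. ChIP-seq reads the DNA pulled down with a protein, here γ-tubulin, which nucleates microtubules, using a pair of anti-γ-tubulin antibodies, and sets it against whole cell extract (WCE) DNA of the same cells. MCF10A is an immortalized line of human breast epithelium, and γTubulinsh-MCF10A is the same line stably expressing a shRNA against γ-tubulin under Zeocin selection. Both were held by a double thymidine block, which stops cells at the entry into S phase, and were harvested 1 h or 2 h later. Each of the 4 conditions had 2 ChIP and 2 WCE libraries, 16 in all, and 1 peak list made from its ChIP libraries together. No value therefore has an error between replicates, and no difference between conditions was tested. The peak lists hold no measure of γ-tubulin itself, so the knockdown was not checked in them.

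Nuclear copies of mtDNA arise when a piece of the mitochondrial genome is inserted into a chromosome, and the mitochondrial genes carried along become pseudogenes. The 7 genes copied here encode subunits of the respiratory chain and of the ATP synthase. ND1 and ND2 belong to complex I, which takes electrons from NADH. CO1, CO2 and CO3 form the catalytic core of cytochrome c oxidase, which passes electrons to oxygen, and ATP6 and ATP8 belong to the membrane part of the ATP synthase. Between them on mtDNA lie 11 tRNA genes. Because a cell has many mtDNA molecules and the copy resembles them closely, reads of either origin can fit both places. The authors kept only reads with a unique position, so a read that the mapper could place on both the copy and mtDNA counted at neither. A read that is listed on the copy differs from the mtDNA reference by enough not to be placed there, or crosses the edge of the insertion.

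Of the genes annotated by RefSeq (GRCh38.p14) at the copy, MIR12136 and LOC101928626 have sequences in the tables used here, and they are shown because they let the mitochondrial origin of the locus be read in nuclear genes. MIR12136 lies on the minus strand between MTCO1P12 and MTCO2P12, where mtDNA has the gene of a serine tRNA, MT-TS1. In its hairpin of 71 bases the capitals mark the mature miRNA, and in the mature miRNA of 18 bases they mark the seed, bases 2 to 8. The start of LOC101928626 lies next to MTND1P23, on the minus strand, and in the 300 bases around it the capitals mark the 198 bases inside the pseudogene.
MIR12136 hairpin: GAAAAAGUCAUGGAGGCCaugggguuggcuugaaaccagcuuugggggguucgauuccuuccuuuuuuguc
hsa-miR-12136: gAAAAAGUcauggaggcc
LOC101928626 promoter: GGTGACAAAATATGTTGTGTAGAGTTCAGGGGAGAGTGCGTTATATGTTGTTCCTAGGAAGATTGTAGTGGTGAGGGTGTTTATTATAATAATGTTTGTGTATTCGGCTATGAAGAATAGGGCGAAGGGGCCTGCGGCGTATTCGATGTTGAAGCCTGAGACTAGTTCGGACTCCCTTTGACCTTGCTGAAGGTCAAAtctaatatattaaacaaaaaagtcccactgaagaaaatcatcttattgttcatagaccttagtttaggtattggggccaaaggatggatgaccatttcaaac

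The copy had no peak in 1 h MCF10A cells, 4 peaks in 1 h γTubulinsh-MCF10A cells, 10 in 2 h MCF10A cells and 4 in 2 h γTubulinsh-MCF10A cells. In bases under peaks these were 0, 524, 2221 and 554, or 0%, 8.06%, 34.2% and 8.52% of the window. With peaks within 1000 bp merged the counts were 0, 3, 1 and 2, so the order in peaks rests on how close peaks are counted, whereas the bases stayed highest in 2 h MCF10A cells. The order of the conditions was not that of the lists as a whole, which held 1035, 288, 1531 and 79 nuclear peaks in the same sequence. The copy thus gave 0% of the nuclear peaks of 1 h MCF10A cells, 1.39% of those of 1 h γTubulinsh-MCF10A cells, 0.653% of those of 2 h MCF10A cells and 5.06% of those of 2 h γTubulinsh-MCF10A cells. The MCF10A 1 h list was also without a peak on mtDNA, whereas the others held 8, 16 and 5. Whether the reference or the control of that list treated mtDNA and its copy like the others was not tested. The window stood alone on chromosome 1. The nearest peak before it ended at 10275, 10283 or 10287 in the 3 lists that had one there, and was missing from the γTubulinsh-MCF10A 2 h list. The nearest peak after it began at 724131 in the 1 h and 726229 in the 2 h list of MCF10A cells, and at 11969068 and 149813339 in γTubulinsh-MCF10A cells.

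**Figure D1:**
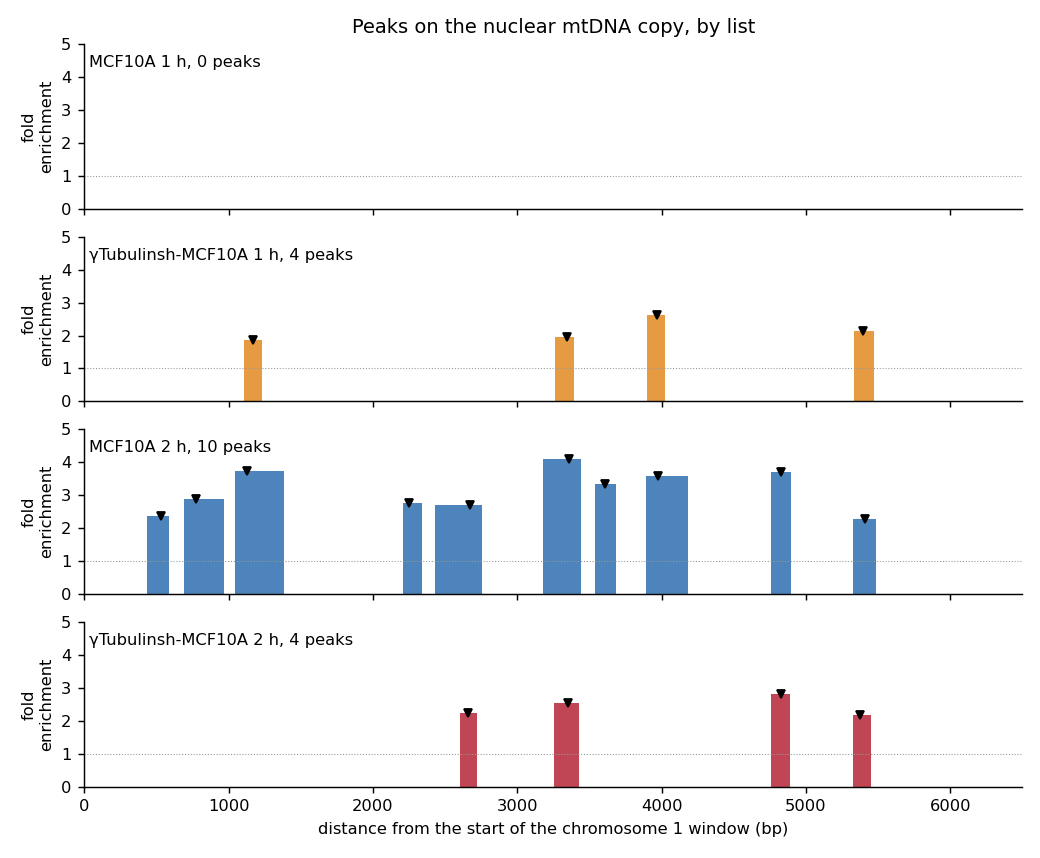
Peaks on the copy in each of the 4 lists. The horizontal axis is the distance from the start of the window in bp, each bar spans a peak and reaches up to its fold enrichment at the summit, the triangle marks the summit, and the dotted line marks a fold of 1. The MCF10A 1 h panel is empty, the MCF10A 2 h panel has 10 bars between 2.29 and 4.11, and the 4 bars of each γTubulinsh-MCF10A panel stand where 2 h MCF10A cells have one too.

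The 18 peaks fell on 10 places, and each γTubulinsh-MCF10A peak lay wholly inside a peak of 2 h MCF10A cells, so that 2221 bases were covered in any list. At 2 places peaks were listed in 3 conditions, at 4 places in 2 conditions, and at the other 4 in 2 h MCF10A cells alone. Across lists the summits of a place were 0 to 45 bp apart. The bases covered in 3 lists were 254, from 567262 to 567392 and from 569330 to 569452. All 4 peaks of 1 h γTubulinsh-MCF10A cells overlapped a peak of 2 h MCF10A cells, compared with 78.1% of all nuclear peaks of their list, and 2 of 4 overlapped one of 2 h γTubulinsh-MCF10A cells, compared with 13.2%. None overlapped a peak of 1 h MCF10A cells, compared with 73.6%. Of the 10 peaks of 2 h MCF10A cells, 4 overlapped a peak of 1 h γTubulinsh-MCF10A cells and 4 one of 2 h γTubulinsh-MCF10A cells, compared with 13.1% and 3.27% of all nuclear peaks of that list, and 0 overlapped one of 1 h MCF10A cells, compared with 44.2%. All 4 peaks of 2 h γTubulinsh-MCF10A cells overlapped a peak of 2 h MCF10A cells (65.8% of their list did), 2 of 4 one of 1 h γTubulinsh-MCF10A cells (51.9%), and 0 of 4 one of 1 h MCF10A cells (45.6%). These counts follow in part from the choice of the window and from its 10 peaks in a single list, and no test was made of them.

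The peaks were put on mtDNA from the rounded bounds of the window and of the copied segment, mtDNA 3900 to 9800, since the sequence of hg19 was not used here. By these bounds a position on chromosome 1 less 560400 gives the mtDNA position within 300 bp, and all 601 shifts in that range were tried. Whether the true shift lies in that range was not checked by alignment. In RefSeq the starts of the 6 pseudogenes other than MTND1P23 differ from those of their mitochondrial parents by an amount that is constant within 2 bp. A single shift was therefore used for the whole copy. Where a peak is named by a pseudogene, it is said whether every placement or only some put it there. A peak counts as on a gene when at least 1 bp overlaps. Shares of placements count the shifts tried and are not likelihoods, since the copy has 1 true shift.

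At the complex I end of the copy, the first 2 places held peaks in 2 h MCF10A cells alone, from 564438 to 564586 and from 564688 to 564970. They had the lowest pileups of that list on the copy, 67 and 72 reads over the summit, with fold enrichments of 2.38 and 2.90 over the local control. Their scores, which are 10 times the −log10 q-value, were 60 and 104. Depending on the shift they fell on MTND1P23, on MTND2P28 or on the tRNA genes between. The third place overlapped MTND2P28 in every placement, although the summit of its 2 h MCF10A peak fell inside in 92.7% of them. The 2 h MCF10A cells had a peak there from 565047 to 565380 with a fold of 3.73 and a score of 326, and 1 h γTubulinsh-MCF10A cells had one from 565104 to 565228 with a fold of 1.87 and a score of 68. The pileups at these summits were alike, 142 and 149 reads, whereas the control background was 37.3 reads in the first and 79.4 in the second. Control values are on the scale that the caller used for the fold of each list, and need not be raw control reads.

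The pseudogene of the catalytic subunit of the oxidase, MTCO1P12, was the longest and held peaks in every list that had any. The 2 h MCF10A cells had a peak from 566207 to 566337 with a fold of 2.77 and a score of 212, which reached MTCO1P12 in some placements and the tRNA genes before it in others. The next peak of that list, from 566431 to 566753 with a fold of 2.71, lay on MTCO1P12 in every placement. In it lay a peak of 2 h γTubulinsh-MCF10A cells from 566600 to 566723, with a fold of 2.25 and a summit 8 bp away. The pileups were 139 and 137 reads.

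The following place, from 567175 to 567444, also lay on MTCO1P12 in every placement and had the highest score of the copy in 2 h MCF10A cells, 475, and in 2 h γTubulinsh-MCF10A cells, 179. These were the 6th score of 1531 and the 6th of 79 nuclear peaks. By fold enrichment the same peaks ranked 656th and 55th. The fold was 4.11 in 2 h MCF10A cells, 2.55 in 2 h γTubulinsh-MCF10A cells and 1.94 in 1 h γTubulinsh-MCF10A cells, where the score was 89. The ChIP pileup varied little, at 182, 169 and 163 reads, and the summits at 567360, 567354 and 567346 lay within 14 bp. The control background, on the scale used for the fold of each list, differed more, at 43.5, 62.0 and 83.5 in the same order.

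Beyond it 2 h MCF10A cells had a peak from 567536 to 567681, alone among the lists, with a fold of 3.34, a score of 223 and a pileup of 115 reads. The place from 567891 to 568179 lay near the passage from MTCO1P12 to MTCO2P12, the copy of the subunit that takes electrons from cytochrome c. The peak of 2 h MCF10A cells overlapped MTCO1P12 in 42.4% of placements, the place of MT-TS1 in 53.9% and MTCO2P12 in 82.2%. MIR12136, which lies where mtDNA has MT-TS1, was not placed itself. The 2 h MCF10A cells had a fold of 3.60, a score of 197 and 92 reads there. In 1 h γTubulinsh-MCF10A cells the peak from 567900 to 568025 had a fold of 2.63, the highest of that list on the copy, with 108 reads and the lowest control background of its 4 peaks, 40.5 reads. It overlapped MTCO1P12 in 40.9% of placements, the place of MT-TS1 in 32.3% and MTCO2P12 in 56.6%.

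The ATP synthase end of the copy held 2 places. At the first, 2 h MCF10A cells had a peak from 568759 to 568894 and 2 h γTubulinsh-MCF10A cells one from 568759 to 568887, with the same start and the same summit, 568830. The fold was 3.72 in the first and 2.81 in the second, although the pileup was lower in the first, 105 reads against 130. The peak could be put on MTCO2P12, MTATP8P1 or MTATP6P1. The last place held a peak in 3 lists, from 569324 to 569483 in 2 h MCF10A cells, 569330 to 569471 in 1 h γTubulinsh-MCF10A cells and 569328 to 569452 in 2 h γTubulinsh-MCF10A cells. They overlapped MTATP6P1 in 97.2%, 96.2% and 96.5% of placements. The folds were close, at 2.29, 2.15 and 2.18, as were the pileups, 182, 170 and 168 reads. The control backgrounds, on the scale used for the fold of each list, were 79.0, 78.6 and 72.0. MTCO3P12, the copy of the third core subunit, was reached by this peak in some placements and by no other.

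At the 6 places shared with γTubulinsh-MCF10A cells the fold was higher in 2 h MCF10A cells in all 8 pairs of peaks. At the 2 places listed in 3 conditions the same 2 h MCF10A peak stands in 2 pairs. The median fold of the other nuclear peaks was also highest in 2 h MCF10A cells, 3.82. It was 2.45 in 1 h and 3.37 in 2 h γTubulinsh-MCF10A cells. Pairs over all shared nuclear peaks were not counted, so the direction is not shown to be particular to the copy. The pileup itself was higher in 2 h MCF10A cells in 5 of the 8 pairs and lower in 3. To set lists of unlike depth side by side, the values were divided by the genome background, the lowest control background of the list, which was 1.28 reads in 1 h γTubulinsh-MCF10A cells, 1.69 in 2 h MCF10A cells and 1.66 in 2 h γTubulinsh-MCF10A cells. On this scale the ChIP pileup of 2 h MCF10A cells was lower than that of 1 h γTubulinsh-MCF10A cells in 4 of 4 pairs, and the control background was lower in 4 of 4. Against 2 h γTubulinsh-MCF10A cells the pileup was higher in 3 of 4 pairs and the control background lower in 3 of 4. The place of highest score is an example, with a pileup of 107 times the genome background in 2 h MCF10A cells, 127 in 1 h γTubulinsh-MCF10A cells and 96.1 in 2 h γTubulinsh-MCF10A cells, over controls of 25.7, 65.1 and 37.4 times. The lower folds of γTubulinsh-MCF10A cells went with higher controls in 6 of 8 pairs before this division and in 7 of 8 after it. After the division the median control of the other nuclear peaks was also lowest in 2 h MCF10A cells, 6.29 times. It was 21.9 times in 1 h and 7.83 times in 2 h γTubulinsh-MCF10A cells. The part of the control libraries in the lower folds was not tested.

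The control background was high at the 18 summits on the copy, and it is not known between the peaks. It was at least 3 times the genome background at 4 of 4, 10 of 10 and 4 of 4 summits in 1 h γTubulinsh-MCF10A cells, 2 h MCF10A cells and 2 h γTubulinsh-MCF10A cells, compared with 90.6%, 75% and 64.6% of all nuclear peaks of these lists. The range was 31.6 to 65.1 times in 1 h γTubulinsh-MCF10A cells, 14.3 to 46.6 times in 2 h MCF10A cells and 25.9 to 43.4 times in 2 h γTubulinsh-MCF10A cells. The medians of the copy, 61.5, 21.0 and 35.9 times, lay above those of the other nuclear peaks, 21.9, 6.29 and 7.83 times. Whether reads of mtDNA take part in the high control of the copy was not tested. The median fold of the copy, 2.04, 3.12 and 2.40, lay below that of the other nuclear peaks, 2.45, 3.82 and 3.37, while its median score, 107, 204.5 and 140, lay above theirs, 56.5, 93 and 68. When only the other nuclear peaks within the copy's range of control background are taken, 46, 336 and 7 peaks, their median folds were 1.99, 2.53 and 2.15, and 2 of 4, 8 of 10 and 4 of 4 peaks of the copy were above them.

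**Figure D2:**
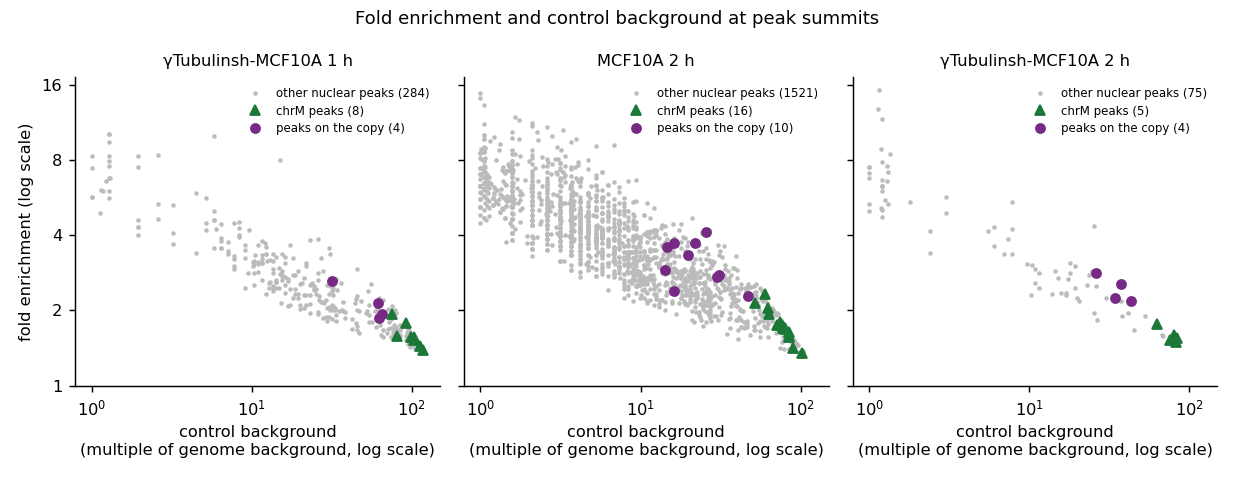
Fold enrichment against control background at each summit, both on log scales, in the 3 lists with peaks on the copy. Grey points are other nuclear peaks, purple circles peaks on the copy and green triangles peaks on chrM. The copy stands at 14.3 to 65.1 times the genome background, in the lower right of the nuclear peaks, and the chrM peaks lie farther right at 52.0 to 118 times with folds of 1.36 to 2.32.

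The chrM peaks of the same lists had yet higher controls and, by median, lower folds than the copy. Their control background was 74.6 to 118, 52.0 to 102 and 63.0 to 83.2 times the genome background in 1 h γTubulinsh-MCF10A cells, 2 h MCF10A cells and 2 h γTubulinsh-MCF10A cells. In each list the median fold of the copy was above that of chrM, 2.04 against 1.57, 3.12 against 1.72 and 2.40 against 1.55. The ranges overlapped in the first 2 of these lists, where the lowest folds of the copy were 1.87 and 2.29 and the highest of chrM 1.93 and 2.32. The copy's peaks were shorter, with a median length of 128.5, 215 and 127 bp against 213, 506 and 177 bp. Their pileups reached 108 to 170, 67 to 182 and 130 to 169 reads, whereas those of chrM reached 165 to 211, 190 to 236 and 196 to 227 reads. In each list the highest pileup of any peak, 211, 240 and 227 reads, was not above 2 times the shortest peak, 212, 240 and 230. If the shortest peak is the fragment length of the caller and 1 read was kept for each position and strand, this is the most that a pileup can be. The chrM pileups were at 77.8% to 99.5% of that number and the copy's at 27.9% to 80.2%, and the part of such a limit in the lower folds of chrM was not tested.

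**Figure D3:**
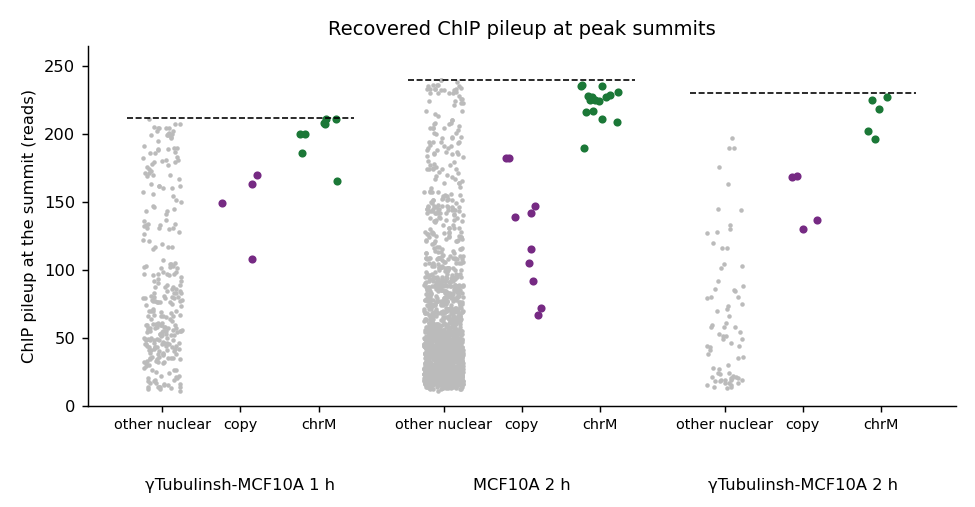
ChIP pileup at each summit, in reads, for other nuclear peaks (grey), peaks on the copy (purple) and chrM peaks (green) in the 3 lists with peaks on the copy. The dashed lines are 2 times the shortest peak of the list, 212, 240 and 230, the copy's points end at 170, 182 and 169, and the chrM points range over 165 to 211, 190 to 236 and 196 to 227 reads, so that only in 1 h γTubulinsh-MCF10A cells a chrM point, at 165, lies below the copy's highest.

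The copied segment of mtDNA was more sparsely covered by chrM peaks than the rest of mtDNA in all 3 lists. In 2 h MCF10A cells, 4 of 16 chrM peaks overlapped the segment, at 3594 to 4134, 4254 to 4576, 6177 to 7379 and 7524 to 8336 of mtDNA, and covered 2574 of its 5901 bases, or 43.6%. Over the other 10639 positions, up to the last base under a peak, the share was 75.4%. In γTubulinsh-MCF10A cells no chrM peak overlapped the segment, against 20.2% of the other positions at 1 h and 7.85% at 2 h. By whole gene, the parents of the pseudogenes were covered in 2 h MCF10A cells to 74.3% for ND1, 10.3% for ND2 and 78.0% for CO1. For CO2 the share was 100%, and for ATP8, ATP6 and CO3 it was 0%. The ND1 share includes bases of the peaks at 3170 to 3466 and 3594 to 4134 that precede the segment. Of the 7 parents 4 were touched, with a median of 10.3%. Of the 8 other protein and rRNA genes listed, which lie outside the segment, 8 were touched, with a median of 81.0%. In 1 h γTubulinsh-MCF10A cells these counts were 0 of 7 and 5 of 8, and at 2 h 1 of 7 and 2 of 8, the 1 being ND1 in a part that precedes the segment. The longest stretches of mtDNA without a peak in 2 h MCF10A cells ran from 8337 to 10335, 1999 bp, and from 4577 to 6176, 1600 bp, and both lie largely on the segment. Reads of mtDNA that also fit the copy are dropped by the mapping, and its part in these gaps was not tested.

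Placed on the segment, the peaks of the copy and those of chrM met in 2 h MCF10A cells alone. There 1078 to 1235 of the copy's 2221 bases under peaks, 48.5% to 55.6% over the 601 placements, fell under a chrM peak inside the segment. Parts of chrM peaks outside the segment were left out of this count. Of the whole segment, 43.6% lay under a chrM peak. The peak of highest score, from 567175 to 567444, lay wholly inside the chrM peak at 6177 to 7379 in every placement. With chrM peaks taken at their full length, 4 of the 10 peaks overlapped a chrM peak in every placement and 5 in some. The remaining 1, the MTATP6P1 peak from 569324 to 569483, overlapped a chrM peak in none. The 8 peaks of γTubulinsh-MCF10A cells had no chrM peak of their list at their place in any placement.

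**Figure D4:**
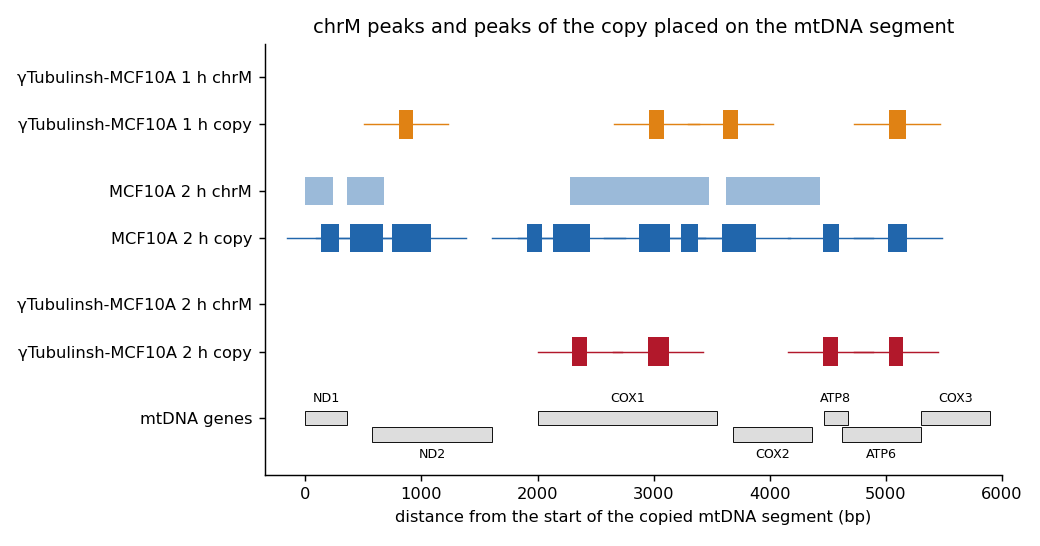
The copied mtDNA segment with chrM peaks (light blue, MCF10A 2 h) and the peaks of the copy (dark bars at the middle placement, lines showing the range of 300 bp either way) in the 3 lists with peaks on the copy, as distance in bp from the segment's start, above the mtDNA genes. The chrM peaks are drawn only inside the segment. With chrM peaks at their full length, 4 of the 10 peaks of 2 h MCF10A cells meet one in every placement. The rows of chrM peaks are empty for γTubulinsh-MCF10A cells.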

How the data were processed

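γ-Tubulin ChIP-seq of MCF10A and γTubulinsh-MCF10A cells was analysed from 4 peak lists, 1 per condition. The authors sequenced on the Ion Proton and mapped to hg19 with the mtDNA of Ensembl using Bowtie 1.0.0, keeping uniquely mapping reads, and called peaks with MACS2 2.1.1 (versions per the submitters' processing notes, which also name bedtools 2.17.0). Their methods name the differential tool of MACS2, whereas the deposited values have the form of calls against a control. The authors gave each peak a score (the −log10 q-value multiplied by 10, without decimals), a fold enrichment (a ratio of pileup to control, each with 1 added), and a −log10 p-value and −log10 q-value. Positions are counted from 1.

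The depth is not given in the lists. ChIP pileup and control background were solved from fold and p-value under the formulas of MACS2, with pileups accepted within 0.02 of a whole number. The procedure was run on data simulated with the same formulas. Such a run cannot show whether the deposited values follow these formulas. In 2 h γTubulinsh-MCF10A cells pileups are in reads before the authors' scaling. Control backgrounds are on the scale used for the fold in every list, so any scaling of control reads is left in them. Peaks overlapped from 1 bp. Peaks and lists were chosen with earlier results of these data known. All peaks on the copy and all chrM peaks over the segment were to be named, with the 7 pseudogenes and their parents. Gene intervals of mtDNA came from RefSeq. Alternatives were score thresholds, a minimum length of 400 bp, merging within 1000 bp, the summit in place of the peak, other overlaps, peaks widened by 100 bp and another reference for the control background. Reads of single libraries and RNA-seq were not analysed here. Tools were matplotlib 3.10.9, scipy 1.17.1, pandas 2.3.3 and numpy 2.4.6 in Python 3.11.15.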

Additional observations from a re-analysis of the deposited data

Results flagged for a closer look

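Between γTubulinsh-MCF10A and MCF10A cells the difference on the copy had opposite directions at 1 h and 2 h as the peaks are listed. At 1 h γTubulinsh-MCF10A cells had 4 peaks more than MCF10A cells, which had none. At 2 h the difference, γTubulinsh-MCF10A minus MCF10A, was -6 peaks. In bases under peaks the differences were 524 at 1 h and -1667 at 2 h. With 1 list per condition the difference between the time points was not tested. With peaks within 1000 bp merged, γTubulinsh-MCF10A cells had more peaks at both times, by 3 at 1 h and 1 at 2 h, whereas the bases kept opposite directions, 1031 and -3523. With a score of at least 132 or a length of at least 400 bp the 1 h differences were 0. The MCF10A 1 h list, which gives the direction at 1 h, was also without chrM peaks.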

How the results depend on the processing

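Of 121 values recomputed under alternatives for single lists, 55 belong to a count of 0, which most of these settings cannot move, so they say nothing of stability. Of the other 66, 41 stayed within the limit for an unchanged value and 25 moved. With a score at or above the pooled 75th percentile, 132, the copy kept 0 peaks and 0 bases in 1 h γTubulinsh-MCF10A cells and 2 peaks and 305 bases at 2 h, and the segment in 2 h MCF10A cells kept 1 chrM peak and 235 bases. With a length of at least 400 bp the copy had 0 peaks and 0 bases in the γTubulinsh-MCF10A 1 h list, the MCF10A 2 h list and the γTubulinsh-MCF10A 2 h list. With peaks within 1000 bp merged, the copy had 1 peak in 2 h MCF10A cells and 2 in 2 h γTubulinsh-MCF10A cells, and 1031, 5046 and 1523 bases in these 3 lists. The segment had 2 chrM peaks in 2 h MCF10A cells. Merged, 1 peak of 2 h MCF10A cells overlapped 1 h γTubulinsh-MCF10A cells and 1 those at 2 h, and 2 of 2 h γTubulinsh-MCF10A cells overlapped 2 h MCF10A cells. With peaks widened by 100 bp, 2490 bases of the copy and chrM were shared in 2 h MCF10A cells. Relative to the median control of all nuclear peaks of the list, the median control on the copy was 2.73 times in 1 h γTubulinsh-MCF10A cells, 3.33 times in 2 h MCF10A cells and 3.50 times in 2 h γTubulinsh-MCF10A cells. The differences, γTubulinsh-MCF10A minus MCF10A, were recomputed as an addition chosen after seeing the data. With peaks within 1000 bp merged the difference in peaks at 2 h turned from -6 to 1, and those in bases were 1031 at 1 h and -3523 at 2 h. With a score of at least 132 the differences at 1 h were 0 peaks and 0 bases, and with a length of at least 400 bp those at 1 h and 2 h were 0 peaks and 0 bases.

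No paired analysis was possible because each condition has 1 list made from both ChIP libraries, and for the same reason no run without a library was made. Bounds of the copy found by sequence were not run, since no sequence of hg19 was used here. The depth and mappable length of the copy limit what can be listed, so a stretch without a peak is not shown to lack γ-tubulin.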
